A study of Mus musculus with 18 samples.

Results

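Solute carriers are membrane proteins that move amino acids, sugars, ions, metals, nucleosides and metabolites across cell and organelle membranes. The genes described here were the entries of the deposited tables whose symbol has the form Slc, a family number, the letter a and a member number. The rule left out 14 symbols, chiefly the stress-regulated amino acid carriers together with glucose, lactate, heme and iron carriers, for example Slc7a11, Slc3a2, Slc2a1 and Slc40a1. It found 124 genes among the 10133 distinct entries of the 3 tables. Of these, 103 were listed among 7555 entries at 0 min, 102 among 8308 at 15 min and 69 among 6119 at 120 min. They were sorted by family into 10 substrate classes.

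The cells were 2 immortalized mouse embryonic fibroblast lines, one labelled Wild-Type (WT here) and one labelled eIF2aS51A (S51A here). The S51A line carries eIF2α with alanine in place of the serine that stress kinases phosphorylate, so this brake on translation initiation cannot be applied. Each line was left untreated (0 min) or given 500 µM hydrogen peroxide for 15 or 120 min, and polyadenylated RNA was sequenced. The 18 samples form 6 groups of 3 by the labels, although the series' design text speaks of duplicates. Each genotype is represented by 1 line, so an effect of the mutation and a difference between the lines cannot be told apart.

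The tables give 1 log2 FPKM value (fragments per kilobase of transcript, scaled to library size) for each group, so the spread between samples, library totals and depth are not known here. They list only entries called different between the lines, with an authors' q-value of at most 0.05. Every gene named below was therefore called by the authors at the times given, and a gene missing at a time was either not called or not listed there. In these bulk samples fewer expressing cells and less RNA per cell cannot be told apart. Of 14 fibroblast marker genes, 11 were listed at 0 min (8 higher and 3 lower in S51A). Among the 8 was Col1a1, a collagen chain, at 241 FPKM in WT against 1160 FPKM in S51A. The 3 lower ones were Dcn, at 54.2 FPKM in WT against 8.88 FPKM in S51A, Vim, at 1872 against 1075 FPKM, and Thy1, at 23.6 against 10.6 FPKM. None of the 6 endothelial markers was listed at any time, and of 7 epithelial markers only Krt19 was, at 6.06 FPKM in WT against 8.17 FPKM in S51A at 0 min. Of 6 macrophage and leukocyte markers 2 were listed at 0 min, both lower in S51A, Cd14 at 10.5 against 15.1 FPKM and Cd68 at 1.11 against 1.97 FPKM, and Csf1r was lower at 120 min, at 0.165 against 0.758 FPKM. Of 6 neural markers 3 were listed at 0 min, among them Tubb3 at 16.2 FPKM in WT against 74.0 FPKM in S51A, and the part of such cell features in the results below was not tested. Eif2s1, which encodes eIF2α, was at 91.8, 90.5 and 97.7 FPKM in WT, compared with 45.3, 45.6 and 57.7 FPKM in S51A at 0, 15 and 120 min. A change of 1 codon is not visible in these values.

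Each solute carrier family is built on a shared fold and usually handles one kind of cargo. Plasma membrane carriers import nutrients by coupling to sodium or proton gradients or by facilitated diffusion, and exchangers set cell pH and chloride. Carriers of lysosome, Golgi and mitochondrion move solutes between compartments, and the Slc25 family in the inner mitochondrial membrane exchanges ADP for ATP and imports phosphate. Amino acid supply is tied to eIF2α, since its phosphorylation is known to raise Atf4 translation and thereby several amino acid carrier genes.

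More solute carriers were higher than lower in the S51A line at every time. At 0 min 61 of 103 (59.2%) were higher and 42 lower, while 49.6% of all entries were higher. At 15 min 59 of 102 (57.8%) were higher and 43 lower, against 49.9% of all entries. At 120 min 40 of 69 (58%) were higher and 29 lower, against 50.9% of all entries. The median log2 difference, S51A minus WT, was 0.50, 0.34 and 0.53 for the solute carriers and −0.27, −0.20 and 0.41 for all entries. The tables hold no gene with a small difference, so these medians move far when a few genes change side. The shares of the set that differed at least 2-fold were 34.0%, 32.4% and 46.4%, near the 37.0%, 32.5% and 47.3% of all entries. Among members at least 2-fold apart 26 of 35, 22 of 33 and 17 of 32 were higher in S51A, against 59.6%, 62.1% and 55.9% of all such entries. Among members with at least 5 FPKM in either line 42 of 76, 39 of 72 and 29 of 53 were higher, against 44.3%, 45.0% and 49.7% of all such entries. Solute carriers were not listed more often than other genes: of 320 protein-coding genes with such a symbol in GENCODE M21, 32.2%, 31.9% and 21.6% were listed, against 33.1%, 36.0% and 26.4% of 21877 protein-coding genes. Across the set 67 of 103 members at 0 min had the lowest q-value that occurs in the authors' deposited table, 1.18e-04, and the highest was 0.0475. At 15 min 73 of 102 had the lowest q-value of the authors' deposited table, 1.02e-04, and the highest was 0.0453. At 120 min 26 of 69 had the lowest, 1.98e-04, and the highest q-value of a member in the authors' deposited table was 0.0365.

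**Figure D1:**
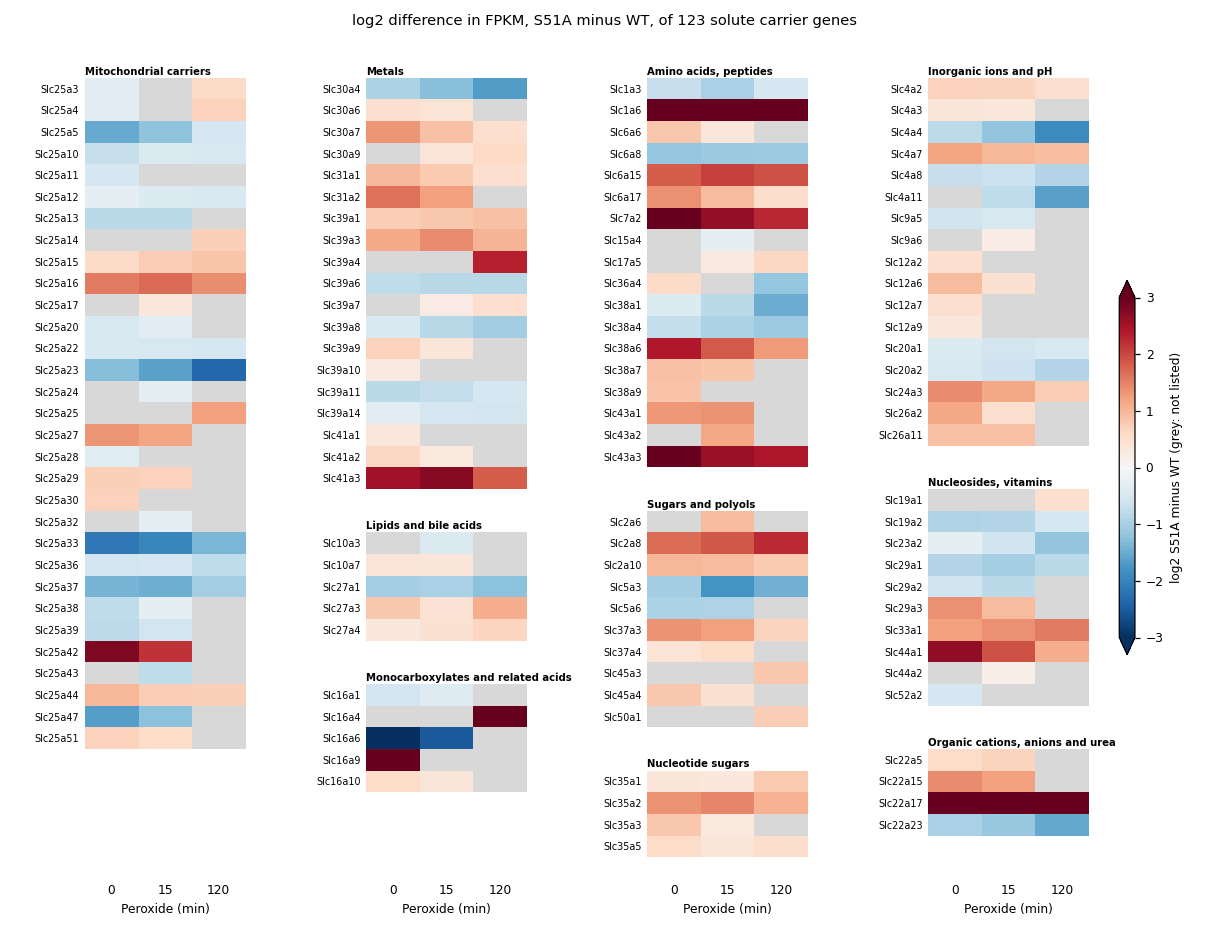
Heat map of the authors' log2 difference in FPKM, S51A minus WT, for 123 of the 124 solute carriers (rows, by substrate class) at 0, 15 and 120 min of peroxide (columns); red is higher and blue lower in S51A, grey means not listed at that time, and the colour scale ends at 3 in each direction. At 0 min the amino acid carriers kept by the rule are mostly red (11 of 15) and Slc25 carriers mostly blue (17 of 25). Of all entries 49.6% were higher at 0 min.

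Amino acid, peptide and neurotransmitter carriers kept by the rule were mostly higher in S51A at 0 and 15 min. Of 15 listed at 0 min 11 were higher and 4 lower (median log2 difference 0.88), where 49.6% of all entries were higher. At 15 min 11 of 16 were higher, against 49.9% of all entries. At 120 min 7 of 12 were higher, against 50.9% of all entries. The summed FPKM of the listed genes of this class was 214.8, 254 and 168.8 in WT. In S51A it was 257.4, 250.2 and 131.5, with a different set listed at each time. Slc1a6, a glutamate carrier best known from cerebellar Purkinje cells (chr10:78780496-78814825, mm10), was at 0.346, 0.171 and 0.112 FPKM in WT, against 13.6, 13.9 and 14.7 FPKM in S51A. It was thus near absent in WT and at a steady level in S51A, a difference of 39.4-, 81.6- and 132-fold, whose size rests on the small WT values. Slc7a2, a carrier of arginine and other cationic amino acids (chr8:40862367-40922070), was at 4.92, 6.63 and 5.24 FPKM in WT, compared with 44.6, 41.1 and 25.1 FPKM in S51A. Its excess in S51A was 9.06-fold at 0 min, 6.19-fold at 15 min and 4.79-fold at 120 min. Slc43a3, placed with this class by family although it is known to carry purine nucleobases, was at 1.03, 1.62 and 1.28 FPKM in WT, against 10.2, 9.78 and 6.92 FPKM in S51A. All 3 genes were higher in S51A at all 3 times.

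The Slc38 family of sodium-coupled neutral amino acid carriers was split. Slc38a1, a glutamine carrier, was at 24.2, 28.6 and 22.3 FPKM in WT, compared with 18.4, 16.4 and 7.89 FPKM in S51A, lower in S51A by 1.32-, 1.74- and 2.83-fold. Slc38a4, from the same branch of the family, was at 72.5, 82.7 and 73.0 FPKM in WT, against 44.0, 43.1 and 34.1 FPKM in S51A. Slc38a6 was higher in S51A, at 3.71, 2.95 and 1.4 FPKM against 0.697, 0.829 and 0.578 FPKM in WT. The lysosomal glutamine carrier Slc38a7 was also higher in S51A, at 7.46 and 7.95 FPKM against 4.06 and 4.44 FPKM at 0 and 15 min. Slc38a9 was listed at 0 min alone and was higher in S51A, at 0.693 against 0.384 FPKM. Of the listed Slc38 genes, the abundant Slc38a1 and Slc38a4 were thus lower in S51A at all times and the less abundant ones higher. Slc38a2 was left out by the rule, so this does not describe the whole family.

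Slc6 carriers of osmolytes and energy buffers also went in both directions. Slc6a8, the creatine carrier, was at 45.6, 45.2 and 41.6 FPKM in WT, compared with 20.4, 20.8 and 19.7 FPKM in S51A, a nearly constant gap. Slc6a6, the taurine carrier, was higher in S51A, at 62.7 against 35.8 FPKM at 0 min and 57.3 against 45.2 FPKM at 15 min. Slc6a17, a vesicular carrier of neutral amino acids, was at 3.92, 4.89 and 4.0 FPKM in WT, against 10.1, 9.51 and 5.78 FPKM in S51A. Slc1a3, a glial-type glutamate carrier, was lower in S51A at all times, at 8.63, 8.11 and 6.92 FPKM against 13.8, 15.9 and 9.85 FPKM. Both glutamate carriers of the Slc1 family that were listed therefore stood on opposite sides.

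**Figure D2:**
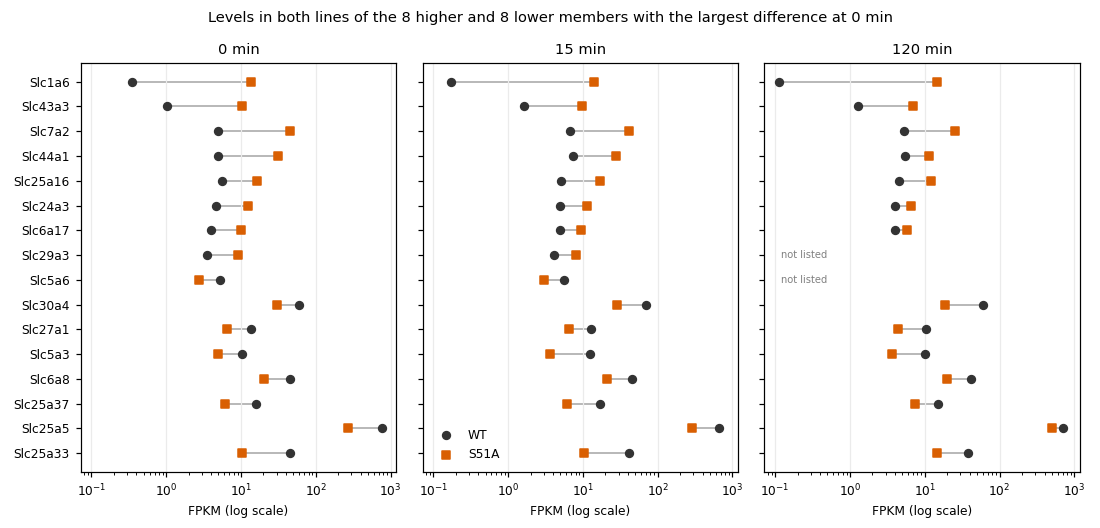
FPKM (x axis, log scale) in WT (circles) and S51A (squares) at 0, 15 and 120 min for the 8 higher and 8 lower solute carriers with the largest log2 difference at 0 min, chosen where the higher line reached 5 FPKM and neither line was listed at 0. Each point is the authors' 1 value for a group of samples, without error; the widest gap is that of Slc1a6, at 0.346 FPKM in WT against 13.6 FPKM in S51A at 0 min.

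Sugar and polyol carriers were higher in S51A for 5 of 7 genes at 0 min, 6 of 8 at 15 min and 5 of 6 at 120 min. Of all entries 49.6%, 49.9% and 50.9% were higher at these times. Slc37a3, an endoplasmic reticulum protein of the sugar phosphate exchanger family, was at 8.94, 9.45 and 8.88 FPKM in WT, compared with 22.8, 22.3 and 14.0 FPKM in S51A. Slc2a8, an intracellular hexose carrier, was at 1.19, 1.10 and 0.50 FPKM in WT, against 3.78, 4.03 and 2.38 FPKM in S51A, and Slc2a10 was at 2.14, 2.10 and 2.11 FPKM in WT, compared with 4.26, 4.08 and 3.63 FPKM in S51A. The exceptions were both of the sodium-coupled Slc5 family. Slc5a3, which imports the osmolyte myo-inositol, was at 10.2, 12.6 and 9.99 FPKM in WT, against 4.92, 3.63 and 3.71 FPKM in S51A. Its deposited locus is shared with Mrps6, so the division of reads between them is uncertain. Slc5a6, the multivitamin carrier for biotin and pantothenate, was at 5.32 and 5.66 FPKM in WT, compared with 2.75 and 2.99 FPKM in S51A at 0 and 15 min, and it shares its locus with Atraid at 15 min.

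Of the Slc16 monocarboxylate carriers, Slc16a1, which moves lactate and pyruvate with protons, was at 39.7 and 36.8 FPKM in WT, against 26.7 and 28.1 FPKM in S51A at 0 and 15 min. Slc16a6 was at 0.835 and 0.747 FPKM in WT, compared with 0.0866 and 0.129 FPKM in S51A. Slc16a9 was listed at 0 in the WT line but reached 2.31 FPKM in S51A at 0 min, and Slc16a4 was likewise listed at 0 in the WT line but reached 1.21 FPKM in S51A at 120 min, so no fold is given for them. Among the fatty acid transport proteins, which also activate fatty acids with coenzyme A, Slc27a1 was at 13.6, 12.7 and 10.3 FPKM in WT, against 6.59, 6.45 and 4.35 FPKM in S51A. Slc27a4 was higher in S51A, at 13, 13.2 and 10.3 FPKM against 10.4, 9.58 and 6.59 FPKM, and Slc27a3 was higher too, at 4.99, 4.69 and 5.06 FPKM against 2.87, 3.46 and 2.40 FPKM. Slc22a17, of the organic ion family, was at 0.262, 0.112 and 0.270 FPKM in WT, compared with 2.20, 2.73 and 2.13 FPKM in S51A.

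Inorganic ion carriers were higher in S51A for 11 of 16 genes at 0 min, for 8 of 14 at 15 min and for 3 of 8 at 120 min. Among all entries 49.6%, 49.9% and 50.9% were higher. The bicarbonate carriers of the Slc4 family went both ways. Slc4a2, a chloride and bicarbonate exchanger, was at 22.0, 22.6 and 18.1 FPKM in WT, against 35.5, 36.0 and 25.8 FPKM in S51A. Slc4a7, a sodium bicarbonate importer, was at 9.92, 10.9 and 7.26 FPKM in WT, compared with 22.6, 21.9 and 13.6 FPKM in S51A. Slc4a4, another sodium bicarbonate cotransporter, was lower in S51A, at 1.76, 1.5 and 0.717 FPKM against 3.03, 3.43 and 2.71 FPKM. All 4 listed Slc12 cation and chloride cotransporters were higher in S51A at 0 min, among them Slc12a2, which imports chloride with sodium and potassium, at 27.1 against 19.3 FPKM. Both phosphate importers were lower in S51A at every time. Slc20a1 was at 40.2, 43.1 and 31.8 FPKM in WT, against 30.5, 29.4 and 23.1 FPKM in S51A, and Slc20a2, whose locus is shared with Smim19, was at 22.8, 23.6 and 15.3 FPKM in WT, compared with 16.2, 15.2 and 8.4 FPKM in S51A. Their summed level was 63.0, 66.7 and 47.1 FPKM in WT and 46.7, 44.7 and 31.5 FPKM in S51A. Slc24a3, a calcium extruder that exchanges sodium for calcium and potassium, was higher in S51A, at 12.3, 11.2 and 6.54 FPKM against 4.59, 4.99 and 3.94 FPKM.

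Metal carriers were higher in S51A for 11 of 16 genes at 0 min, 11 of 16 at 15 min and 8 of 13 at 120 min. For all entries the shares were 49.6%, 49.9% and 50.9%. The zinc importers of the Slc39 family were evenly divided, with 4 higher and 4 lower among 8 listed at each time. Slc39a1 was at 29.4, 29.4 and 23.8 FPKM in WT, against 48.8, 51.3 and 43.7 FPKM in S51A. Slc39a6 was lower in S51A, at 34.8, 34.5 and 33.1 FPKM against 59.3, 61.4 and 58.9 FPKM. Slc39a7, which releases zinc from the endoplasmic reticulum and Golgi, was the most abundant of them and was higher in S51A at 15 min, at 124 against 104 FPKM, and at 120 min, at 147 against 103 FPKM. Slc30a4, which moves zinc into vesicles, was at 59.7, 69.1 and 60.5 FPKM in WT, compared with 30.7, 28.8 and 18.9 FPKM in S51A. Slc30a7, which loads zinc into the Golgi, was at 3.63, 4.41 and 3.25 FPKM in WT, against 9.19, 8.17 and 4.66 FPKM in S51A. Both copper carriers were higher in S51A: the plasma membrane importer Slc31a1 was at 29.4, 27.9 and 20.7 FPKM against 15.0, 16.1 and 14.4 FPKM, and Slc31a2 was at 4.50 and 4.79 FPKM against 1.46 and 2.03 FPKM at 0 and 15 min. Slc41a3, a magnesium carrier, was at 0.737, 0.688 and 0.774 FPKM in WT, compared with 4.26, 4.56 and 2.73 FPKM in S51A. At 0 min 50.4% of all entries were lower in S51A. Of 7 other genes for zinc and copper buffering, 1 was higher and 5 were lower there. They included the metal-binding metallothioneins Mt1, at 699 FPKM in WT against 254 FPKM in S51A, and Mt2, at 584 FPKM in WT against 197 FPKM in S51A. At 15 min 1 was higher and 5 were lower, where 50.1% of all entries were lower. At 120 min, where 50.9% of all entries were higher, 3 of the 7 were listed, all higher in S51A. Among them were the copper chaperones Cox17, at 186 FPKM in WT against 407 FPKM in S51A, and Atox1, at 224 against 399 FPKM. Both had been lower in S51A before. Cox17 was at 201 FPKM in WT against 99.7 FPKM in S51A at 0 min, and at 149 against 119 FPKM at 15 min. Atox1 was at 254 against 159 FPKM and at 204 against 175 FPKM.

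Nucleoside, vitamin and cofactor carriers were divided, with 3 of 8 higher in S51A at 0 min, 4 of 8 at 15 min and 3 of 6 at 120 min. The shares of all entries higher at these times were 49.6%, 49.9% and 50.9%. Slc29a1, the main equilibrative nucleoside carrier of the plasma membrane, was at 97.7, 103 and 105 FPKM in WT, against 53.1, 51.6 and 59.7 FPKM in S51A. Slc29a3, its lysosomal relative, was higher in S51A, at 9.06 against 3.53 FPKM at 0 min and 8.06 against 4.14 FPKM at 15 min. Slc19a2, which imports thiamine, was at 12.0, 11.5 and 9.19 FPKM in WT, compared with 6.41, 6.23 and 6.41 FPKM in S51A. Slc23a2, which imports ascorbate, was at 10.1, 11.6 and 10.5 FPKM in WT, against 8.34, 7.78 and 4.59 FPKM in S51A. Slc33a1, which brings acetyl-CoA into the endoplasmic reticulum, was higher in S51A, at 15.6, 14.8 and 21.7 FPKM against 6.63, 5.74 and 7.31 FPKM. Slc44a1, a choline carrier (chr4:53440413-53622478), was at 4.92, 7.36 and 5.43 FPKM in WT, compared with 31.1, 27.7 and 11.5 FPKM in S51A. Its excess in S51A was 6.32-fold at 0 min, 3.76-fold at 15 min and 2.11-fold at 120 min.

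All listed Slc35a genes, which bring nucleotide sugars into the Golgi for glycosylation, were higher in S51A, 4 of 4 at 0 and 15 min and 3 of 3 at 120 min. These are few genes, and 49.6%, 49.9% and 50.9% of all entries were higher at 0, 15 and 120 min. Slc35a2, the UDP-galactose carrier, was at 6.54, 6.59 and 7.36 FPKM in WT, against 16.7, 18.0 and 15.1 FPKM in S51A. Slc35a1, the CMP-sialic acid carrier, was at 15.3, 15.3 and 12.6 FPKM in WT, compared with 19.7, 19.2 and 21.9 FPKM in S51A. The summed level of the listed Slc35a genes was 37.2 FPKM in WT against 61.9 FPKM in S51A at 0 min, and 41.4 and 61.3 FPKM at 15 min. The related Slc35 subfamilies b to f, which the symbol rule does not take in, were divided in direction. Of 16 such genes in the list of other carriers 5 were higher and 5 lower in S51A at 0 min, 3 and 4 at 15 min, and 4 and 3 at 120 min. At 0 min Slc35b1 was at 49.5 FPKM in S51A against 67.7 FPKM in WT, and Slc35e4 was at 6.87 against 16.1 FPKM.

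Mitochondrial Slc25 carriers leaned the other way at 0 and 15 min. In S51A 17 of 25 were lower at 0 min and 16 of 24 at 15 min, against 50.4% and 50.1% of all entries. At 120 min 8 of 15 were lower, near the 49.1% of all entries. The median log2 differences of the Slc25 carriers were −0.45, −0.365 and −0.46. Without them 53 of the other 78 solute carriers were higher at 0 min, 51 of 78 at 15 min and 33 of 54 at 120 min. The summed FPKM of the listed Slc25 genes was 2211 in WT and 1393 in S51A at 0 min, and 1791 and 2070 at 120 min, where a different set was listed. These sums rest on 3 genes of energy metabolism: Slc25a4 and Slc25a5, which exchange ADP for ATP, and Slc25a3, which imports phosphate for ATP synthesis. Slc25a5 (chrX:36795597-36798808) was at 771, 671 and 709 FPKM in WT, against 271, 290 and 498 FPKM in S51A, so that its deficit in S51A was 2.85-, 2.31- and 1.42-fold. Slc25a4 (chr8:46207341-46211009) was at 519 FPKM in WT against 419 FPKM in S51A at 0 min, and at 478 FPKM in WT against 765 FPKM in S51A at 120 min. Slc25a3 (chr10:91116578-91123963) was at 481 FPKM in WT against 388 FPKM in S51A at 0 min, and at 458 FPKM in WT against 680 FPKM in S51A at 120 min. Slc25a4 and Slc25a5 are close paralogs, and the sources used here do not say how reads matching both were counted. Summed, they were at 1290 FPKM in WT against 689 FPKM in S51A at 0 min, and at 1187 and 1263 FPKM at 120 min. Slc25a4 made up 40.3% of that sum in WT and 60.8% in S51A at 0 min, and 40.3% and 60.6% at 120 min.

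Other Slc25 members were lower or higher in S51A by varied amounts. Slc25a33, a pyrimidine nucleotide carrier, was at 45.6, 40.8 and 37.8 FPKM in WT, compared with 10.3, 10.5 and 14.7 FPKM in S51A. Slc25a37, the iron importer mitoferrin of heme-forming cells, was at 16, 17.1 and 14.8 FPKM in WT, against 6.06, 6.19 and 7.31 FPKM in S51A. Slc25a39, which imports glutathione, was at 132 and 112 FPKM in WT, compared with 76.6 and 77.2 FPKM in S51A at 0 and 15 min. Slc25a23, a calcium-regulated carrier of ATP-magnesium and phosphate, was at 4.26, 4.53 and 5.13 FPKM in WT, against 1.75, 1.5 and 1.01 FPKM in S51A, 5.10-fold lower at 120 min. Its relative Slc25a25 was listed at 120 min alone and was higher in S51A there, at 18.6 against 7.95 FPKM. Slc25a16, linked to coenzyme A in mitochondria, was higher in S51A at all times, at 16.3, 16.8 and 12.1 FPKM against 5.54, 5.17 and 4.59 FPKM. Slc25a15, the ornithine carrier of the urea cycle, was higher as well, at 12.0, 13.1 and 12.0 FPKM against 8.11, 7.78 and 6.77 FPKM.

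Most differences between the lines kept their side over the 120 min. Of 55 members listed at all 3 times 28 were higher each time, 27 were lower each time and 0 changed side. Of 40 listed at 2 times 26 were higher at both, 11 were lower at both and 3 changed side. The other 29 were listed at 1 time, 12 at 0 min, 10 at 15 min and 7 at 120 min. Among the 28, 9 had a larger log2 difference at 120 min than at 0 min, and among the 27, 18 did. The 3 that changed side were Slc25a3, Slc25a4 and Slc36a4, an amino acid carrier of the proton-coupled family (chr9:15709769-15738789). For Slc25a3 the log2 ratio in the authors' deposited table was −0.31 at 0 min (q-value 0.0121) and 0.57 at 120 min (q-value 0.00465). For Slc25a4 the log2 ratio in the authors' deposited table was −0.31 at 0 min (q-value 0.0131) and 0.68 at 120 min (q-value 1.98e-04). Slc36a4 went the opposite way, from 6.32 FPKM in WT against 9.32 FPKM in S51A at 0 min to 7.41 and 3.29 FPKM at 120 min. The log2 ratio of Slc36a4 in the authors' deposited table was 0.57 (q-value 7.45e-04) and then −1.17 (q-value 8.70e-04).

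The change within each line was described for genes listed at both times, as the difference of log2(FPKM + 1) less the median of all such genes, with no test because each group has 1 value. The pseudocount of 1 understates the change of low genes, and the tables may have been scaled separately. From 0 to 15 min none of 88 members moved by 0.5 or more in either line, against 1.10% of 6374 genes in WT and 0.329% in S51A. From 0 to 120 min none of 58 members moved that far in WT, against 10.3% of 4330 genes, and 17 did in S51A (29.3%), against 43.9% of all genes. Of those 17, 12 were lower at 120 min (20.7% of the 58, against 20.8% of all genes) and 5 were higher (8.62%, against 23.2% of all genes). The 58 values ran from −0.49 to 0.44 in WT and from −1.19 to 1.05 in S51A, with medians of −0.01 and −0.16. In S51A the highest were Slc25a5, Slc25a4 (1.05) and Slc25a3 (0.99), at −0.02, −0.02 and 0.03 in WT, followed by Slc25a33 (0.66) and Slc33a1 (0.63). The lowest in S51A were Slc44a1 (−1.19), Slc36a4 (−1.09), Slc38a1 (−0.95), Slc38a6 (−0.79), Slc20a2 (−0.70) and Slc30a7 (−0.67). In WT the lowest were Slc27a4 (−0.49), Slc2a8 (−0.45) and Slc20a2 (−0.44), and the highest was Slc22a23 (0.44). The median shift of all genes, taken out of these values, was −0.10 in WT and −0.18 in S51A at 120 min.

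**Figure D3:**
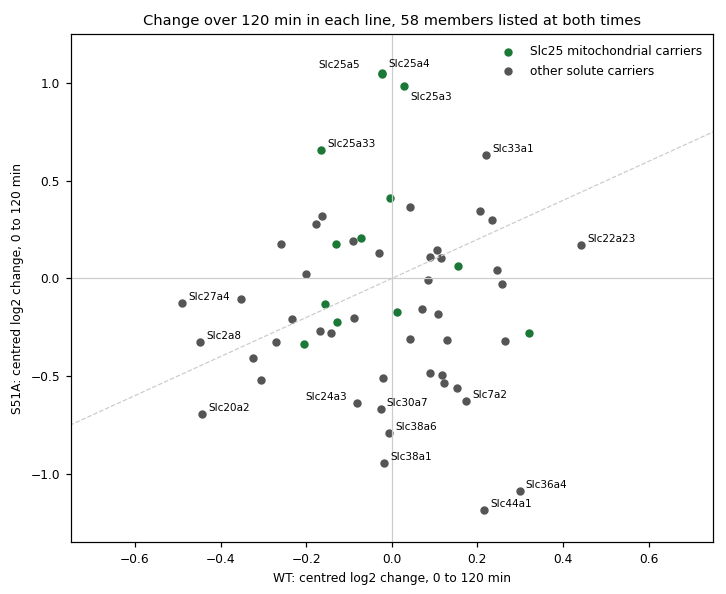
Centred change of log2(FPKM + 1) from 0 to 120 min in WT (x axis) and in S51A (y axis) for the 58 solute carriers listed at both times; green points are Slc25 carriers and the dashed line marks equal change. The points spread further in S51A (−1.19 to 1.05) than in WT (−0.49 to 0.44), with Slc25a5, Slc25a4 and Slc25a3 at the top and Slc36a4 and Slc44a1 at the bottom.

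The promoters of the 5 members at the ends of that plot are shown because these genes moved in opposite directions in S51A by 120 min. Each window is 300 bases, from 250 before to 50 after the start of a RefSeq transcript of GRCm38.p6, written 5′ to 3′ in the direction of the gene, with matches to the motifs below in capitals. The windows are chrX:36795347-36795646 (plus strand) for Slc25a5, chr8:46211013-46211312 (minus) for Slc25a4, chr10:91123918-91124217 (minus) for Slc25a3, chr4:53440163-53440462 (plus) for Slc44a1 and chr9:15709488-15709787 (plus) for Slc36a4.
Slc25a5: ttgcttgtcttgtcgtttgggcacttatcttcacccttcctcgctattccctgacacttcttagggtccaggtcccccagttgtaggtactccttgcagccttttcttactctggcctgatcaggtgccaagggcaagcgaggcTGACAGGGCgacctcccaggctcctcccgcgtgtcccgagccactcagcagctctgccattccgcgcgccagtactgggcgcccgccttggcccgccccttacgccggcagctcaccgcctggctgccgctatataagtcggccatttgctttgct
Slc25a4: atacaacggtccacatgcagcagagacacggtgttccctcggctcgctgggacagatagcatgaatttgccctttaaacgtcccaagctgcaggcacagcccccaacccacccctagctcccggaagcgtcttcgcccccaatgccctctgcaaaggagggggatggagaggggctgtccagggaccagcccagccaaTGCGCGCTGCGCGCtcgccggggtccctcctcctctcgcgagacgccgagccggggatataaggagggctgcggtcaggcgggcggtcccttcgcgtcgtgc
Slc25a3: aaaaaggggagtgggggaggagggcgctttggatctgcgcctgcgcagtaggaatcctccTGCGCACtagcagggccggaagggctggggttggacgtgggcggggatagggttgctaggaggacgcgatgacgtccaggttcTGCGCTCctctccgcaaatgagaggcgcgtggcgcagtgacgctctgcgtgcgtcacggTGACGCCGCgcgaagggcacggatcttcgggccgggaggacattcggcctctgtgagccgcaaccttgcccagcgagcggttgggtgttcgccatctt
Slc44a1: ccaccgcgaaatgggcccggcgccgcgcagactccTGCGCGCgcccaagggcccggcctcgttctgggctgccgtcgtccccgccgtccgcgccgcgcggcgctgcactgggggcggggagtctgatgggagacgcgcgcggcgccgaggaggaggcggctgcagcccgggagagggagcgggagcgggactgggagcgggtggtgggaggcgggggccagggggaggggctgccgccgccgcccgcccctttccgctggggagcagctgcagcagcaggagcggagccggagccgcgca
Slc36a4: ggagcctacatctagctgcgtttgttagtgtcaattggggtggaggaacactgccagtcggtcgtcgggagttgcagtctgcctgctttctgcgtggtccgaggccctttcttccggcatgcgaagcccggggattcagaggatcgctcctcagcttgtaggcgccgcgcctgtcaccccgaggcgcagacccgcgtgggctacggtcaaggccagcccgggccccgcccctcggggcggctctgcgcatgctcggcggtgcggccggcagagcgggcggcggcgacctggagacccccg
The motifs searched, on both strands, were TGATGNAA for the response element of ATF4, TGACNNNGC for the antioxidant response element, and TGCGCNC and TGCACNC for the metal response element. Slc25a5 held TGACAGGGC, Slc25a3 held TGACGCCGC, TGCGCAC and TGCGCTC, Slc25a4 held TGCGCGC at 2 adjoining places, Slc44a1 held TGCGCGC, and Slc36a4 held no match. Promoters were found for 98 of the 124 members, 136 windows in all. TGATGNAA was in 1 of them (0.735%), that of Slc50a1, against 3.97% of 32851 promoters. TGACNNNGC was in 17.6% of the members' windows and 12.4% of all, TGCGCNC in 27.2% and 15.4%, and TGCACNC in 14.7% and 12.6%. The members' windows had a median GC content of 61.8% and 19 CpG sites, and all promoters 52.7% and 7, and the part of base composition in these shares was not tested. A match is a run of letters, and factor binding was not measured here.

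The shift of the difference between the lines over time went with transcript length in the solute carriers and in all genes alike. Length was that of the longest coding transcript in GENCODE M21, and the shift was the log2 difference at 120 min minus that at 0 min. Across the 58 members Pearson's r with log2 length was −0.63 and Spearman's rho −0.63, and across 4102 genes they were −0.65 and −0.65. For the 13 Slc25 members r was −0.70, and for the 45 others −0.55. The 29 members of up to 3702 nt had a median shift of 0.09, with 16 up and 13 down, and the 29 longer ones had −0.39, with 4 up and 25 down. Over all genes the medians on either side of that length were 0.24 and −0.49. Slc25a5 (1240 nt), Slc25a3 (1612 nt) and Slc25a4 (1925 nt) were among the short transcripts, and Slc44a1 (4382 nt) and Slc36a4 (6539 nt) among the long ones. Genes are not independent replicates and share the same libraries, so these values describe the tables, and the part of length in the changes of single carriers was not tested.

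**Figure D4:**
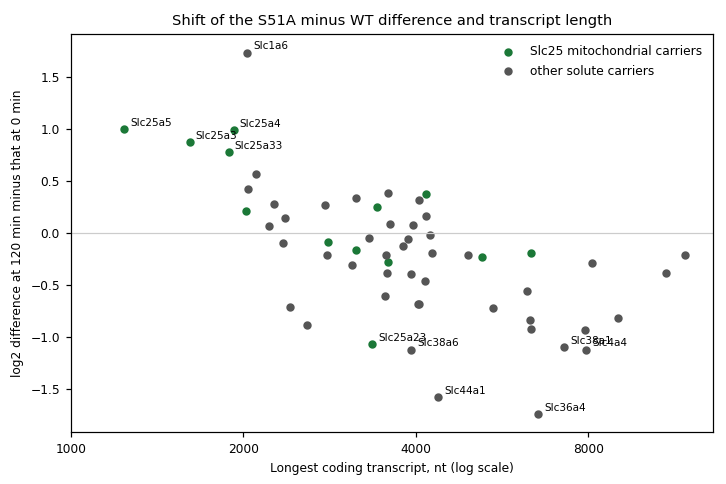
Length of the longest coding transcript (x axis, nt, log scale) against the log2 difference S51A minus WT at 120 min minus that at 0 min (y axis) for 58 solute carriers; green points are Slc25 carriers. Slc25a5 (1240 nt) lies above 0 and Slc36a4 (6539 nt) below it; of the 29 shorter transcripts 16 lie above 0 and 13 below, and of the 29 longer ones 4 lie above and 25 below.

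The direction of the members at 0 min varied between chromosomes. On chromosome 10 8 members were higher and 1 lower, and on chromosome 3 8 were higher and 2 lower, where 74.3% and 73.6% of all entries were higher. On chromosome 11 2 were higher and 5 lower, where 32.5% of all entries were higher. On chromosome 4 6 were higher and 1 lower although 42.9% of all entries were higher, and on chromosome 15 1 was higher and 5 were lower where 52.9% were higher. The part of the chromosome in these differences was not tested, and copy number was not measured. At 0 min 6 pairs of members lay next to each other within 500 kb, and 4 of the pairs had the same direction. Slc38a1 and Slc38a4, 351.9 kb apart on chromosome 15, were both lower, and Slc31a2 and Slc31a1, 62.3 kb apart on chromosome 4, were both higher. Slc25a29 and Slc25a47, 15.3 kb apart on chromosome 12, differed in direction, with log2 ratios of 0.71 and −1.66 in the authors' deposited table.

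Genes that work beside the solute carriers were divided in direction. For comparison, 49.6%, 49.9% and 50.9% of all entries were higher in S51A at 0, 15 and 120 min. Of 53 carriers with other names, 16 were higher and 14 lower in S51A at 0 min, 18 and 13 at 15 min, and 11 and 11 at 120 min. Slco4a1, an organic anion carrier, was at 23.4 FPKM in WT against 0.99 FPKM in S51A at 0 min, and Mfsd2a, a lysophospholipid carrier, was at 9.45 and 2.14 FPKM. Of 21 partners and regulators, 5 were higher and 6 lower at 0 min, 8 and 9 at 15 min, and 6 and 7 at 120 min. Of the kinases that control Slc12 cotransporters by phosphorylation, those that act on the carriers directly were lower in S51A at 0 min, Stk39 at 6.15 against 21 FPKM and Oxsr1 at 18.4 against 50.9 FPKM. Their upstream kinases Wnk3 and Wnk4 were higher in S51A at 0 min, at 1.83 against 0.859 FPKM and at 3.05 against 1.2 FPKM, while Wnk1 was lower at 15 min, at 42.2 against 61.8 FPKM. Arl6ip1, a regulator of glutamate carrier activity, was at 5.46 FPKM in WT against 115 FPKM in S51A. Emb, which chaperones monocarboxylate carriers to the surface, was at 18.1 FPKM in WT against 45.6 FPKM in S51A. Of 16 genes for ion and copper pumps, which set the gradients many carriers use, 4 were higher and 5 lower at 0 min, 3 and 6 at 15 min, and 2 and 5 at 120 min. The sodium pump subunits Atp1b1 and Atp1b3 were lower in S51A at 0 min, at 7.73 against 33.8 FPKM and at 82.7 against 205 FPKM. The subunit Atp1b2 was higher, at 0.801 against 0.0819 FPKM, and so was the copper pump Atp7a, at 12.4 against 5.46 FPKM.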

How the data were processed

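Per the labels' protocols, strand-specific polyadenylated RNA libraries were read for 75 nt from one end. Cufflinks, Cuffdiff, STAR and the mm10 build appear, without versions, in the submitters' processing notes, and the sources used here do not give the annotation. The authors' deposited tables, 1 per time, hold the log2 FPKM of WT and S51A, their log2 ratio and the authors' q-value, with the samples of a group already combined. No test was therefore run here. Every entry is marked significant, and −10 stands for a group listed at 0. The log2 ratio equals S51A minus WT within 0.01. Deposited start positions were raised by 1, after which 47.8% equalled the RefSeq start, against 4.01% before. FPKM was 2 to the power of the deposited value. Medians, counts and correlations used Python 3.11.15, pandas 2.3.3, numpy 2.4.6 and scipy 1.17.1. The code for the counts of direction and the centred change was checked on data with planted values, and that for the correlations was not. Such a check covers the arithmetic and says nothing about the results. Families were assigned to substrate classes by textbook function.

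Genes were named by rule: at each time the 8 higher and 8 lower with the largest difference and at least 5 FPKM in the higher line, those listed at 0 in one line with at least 1 FPKM in the other, those that changed side, the 6 most abundant in each line, up to 4 per class with 5 or more listed, the 6 highest and lowest changes in each line, and 30 chosen genes, of which 27 were listed; others were named after their values were seen. The members and lists were chosen with earlier results of these data known. Alternatives were a minimum of 5 FPKM, a 2-fold minimum, a q-value of at most 0.001, leaving out lines at 0, Slc25 members or shared loci, a pseudocount of 0.1 and no centring. Depth is unknown. The values of 1 member are not reported here, although it is counted in the totals.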

Additional observations from a re-analysis of the deposited data

Results flagged for a closer look

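For 3 solute carriers the authors called the lines different in opposite directions at 0 and 120 min; the difference between the times was not tested. Slc25a3 had a log2 ratio, S51A minus WT, of −0.31 and then 0.57 in the authors' deposited table, and Slc25a4 had −0.31 and then 0.68. Slc36a4 had 0.57 and then −1.17 in the authors' deposited table. None of the 3 was listed at 15 min.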

How the results depend on the processing

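No paired analysis was possible because the tables hold 1 value per group and no values per sample, and leaving out single samples was not run for the same reason. The main counts, higher and lower in S51A, were 61 and 42 at 0 min, 59 and 43 at 15 min and 40 and 29 at 120 min. With at least a 2-fold difference they were 26 and 9 (74.3% higher), 22 and 11, and 17 and 15. With at least 5 FPKM 39 were higher at 15 min. With a q-value of at most 0.001 they were 15 and 14 at 120 min. Without Slc25 members 25 were lower at 0 min and 27 at 15 min. Under each of these alternatives, and without lines at 0 or shared loci (the latter chosen after seeing the data), more members were higher than lower at each time. This compares them with an even split. With at least a 2-fold difference 74.3%, 66.7% and 53.1% of members were higher, against 59.6%, 62.1% and 55.9% of all such entries. At 120 min that share was thus below the share of all entries. For the q-value minimum no share of all entries was worked out. Without centring the median change was −0.027 in S51A at 15 min, −0.11 in WT at 120 min and −0.34 in S51A at 120 min. The median change in WT at 120 min was −0.01, and with at least 5 FPKM it was 0.0024. Fewer entries passed the stricter minimums, which lowers the counts by construction; the cause of the other changes was not tested. Depth and the spread between samples are unknown, so no limit of detection is given.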
